A study of Mus musculus with 12 samples.

Results

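The 8 genes described here encode the subunits of the inward rectifier and ATP-sensitive (KATP) potassium channels of the heart, Kcnj2, Kcnj12, Kcnj3, Kcnj5, Kcnj8, Kcnj11, Abcc8 and Abcc9. They were taken by name and matched by symbol to the Ensembl identifiers of the count files, where all 8 were found among 43629 gene identifiers. RNA sequencing libraries, 3 in each of 4 groups of C57BL/6 mouse cells, were compared. The AGHMT-labelled group was mouse embryonic fibroblasts 3 weeks after Akt, Gata4, Hand2, Mef2c and Tbx5, and the GHMT group was the same cells 3 weeks after Gata4, Hand2, Mef2c and Tbx5 without Akt; both were sorted on a green fluorescent reporter driven by the promoter of the α-myosin heavy chain gene (Myh6). The CM group was adult ventricular cardiomyocytes after isolation, and the E group was mouse embryonic fibroblasts 3 weeks after empty vector. The labels of CM and E name no sort, so in AGHMT or GHMT against either of them the sort and the treatment cannot be told apart. A promoter reporter marks cells by the activity of 1 gene, and the labels do not say whether replicates were separate cultures or animals, so each p-value measures the spread between these libraries, which may be technical.

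Inward rectifiers pass potassium into the cell more readily than out of it, which holds the resting potential of heart muscle near the potassium equilibrium while leaving the plateau of the action potential intact. Kcnj2 and Kcnj12 encode the Kir2 subunits that carry the background inward rectifier current (IK1), the current that keeps ventricular myocytes from beating on their own. Kcnj3 and Kcnj5 encode the paired subunits of the G protein-gated channel (GIRK) through which acetylcholine, acting on muscarinic receptors, slows the sinus node and shortens the atrial action potential. KATP channels join 4 pore subunits, encoded by Kcnj8 or Kcnj11, to 4 sulfonylurea receptors, encoded by Abcc8 or Abcc9, and open when ATP falls. In the mouse, Kcnj11 with Abcc9 is the pair best known from ventricular muscle, Kcnj11 with Abcc8 from pancreatic islets and the atrium, and Kcnj8 with Abcc9 from vascular smooth muscle and pericytes.

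The subunit genes of 1 channel lie side by side in 2 cases. Kcnj8 and Abcc9 are both on the minus strand of chromosome 6, 16247 bases apart, and Kcnj11 and Abcc8 are both on the minus strand of chromosome 7, 3758 bases apart, with no protein-coding gene between the members of either pair in the GENCODE M21 annotation of the mm10 (GRCm38) build. Kcnj2 and Kcnj12 share chromosome 11, with 931 protein-coding genes between them, while Kcnj3 is on chromosome 2 and Kcnj5 on chromosome 9. The gene bodies are Kcnj2 at chr11:111066164-111076821, Kcnj12 at chr11:61022564-61071131, Kcnj3 at chr2:55435970-55598145 and Kcnj5 at chr9:32314707-32344350. Those of the KATP genes are Kcnj8 at chr6:142564837-142571614, Abcc9 at chr6:142587862-142702315, Kcnj11 at chr7:46093953-46100764 and Abcc8 at chr7:46104523-46180033. Promoter windows in the RefSeq-based table (GRCm38.p6) were found for 6 of the 8 genes, all but Kcnj11 and Abcc8. The 250 bases upstream of the start of the 2 GIRK genes, whose levels moved together against E, and those of Kcnj2 and Kcnj8, which hold the other matches described here, are printed 5′ to 3′ on the gene's strand, with matches to the searched motifs in capitals. They span chr2:55435720-55435969 (plus strand), chr9:32344345-32344594 (minus strand), chr11:111065914-111066163 (plus strand) and chr6:142571615-142571864 (minus strand).
Kcnj3: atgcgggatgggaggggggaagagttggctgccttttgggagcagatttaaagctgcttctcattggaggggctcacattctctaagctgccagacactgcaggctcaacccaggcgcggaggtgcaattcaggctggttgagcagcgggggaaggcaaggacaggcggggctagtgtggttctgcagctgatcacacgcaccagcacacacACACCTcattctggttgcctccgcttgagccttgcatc
Kcnj5: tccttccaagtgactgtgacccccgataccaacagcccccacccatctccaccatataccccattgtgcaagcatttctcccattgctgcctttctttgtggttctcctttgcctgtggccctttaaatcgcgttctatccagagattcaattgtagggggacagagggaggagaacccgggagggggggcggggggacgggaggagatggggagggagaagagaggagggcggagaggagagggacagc
Kcnj2: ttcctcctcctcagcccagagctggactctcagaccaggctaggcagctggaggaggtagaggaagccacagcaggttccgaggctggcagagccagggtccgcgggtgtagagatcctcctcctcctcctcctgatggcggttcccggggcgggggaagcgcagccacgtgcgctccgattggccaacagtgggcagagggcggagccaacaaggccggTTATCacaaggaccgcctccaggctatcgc
Kcnj8: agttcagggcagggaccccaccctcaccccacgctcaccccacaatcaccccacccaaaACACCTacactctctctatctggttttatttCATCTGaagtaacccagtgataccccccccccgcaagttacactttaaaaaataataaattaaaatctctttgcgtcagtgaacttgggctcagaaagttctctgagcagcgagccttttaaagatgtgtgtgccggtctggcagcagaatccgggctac

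Exact matches to 4 motifs, each of a family to which a supplied factor belongs, were looked for on both strands, in the whole window from 250 bases before to 50 after the start. GATAA, the motif of the zinc finger family of Gata4, was present in 25.4% of all 32851 windows and, among the 6 genes, in Kcnj2. AGGTGT, a T-box site, was present in 13.7% of windows and in those of Kcnj3 and Kcnj8. CATCTG, an E-box form, was present in 17.2% of windows and in those of Kcnj8 and, downstream of the printed stretch, Kcnj12. The MEF2 motif, CTA and TAG with any 4 bases between, was present in 3.69% of windows and in none of the 6. The windows of Kcnj5 and Abcc9 hold none of the 4 motifs, and no motif was shared by Kcnj3 and Kcnj5. In the printed stretches ACACCT and TTATC are AGGTGT and GATAA read on the opposite strand. These matches are letters in a short window and not measured sites.

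The libraries differed in depth and composition. Reads assigned to genes numbered 14386407 to 18493989 in the AGHMT-labelled libraries, 1872558 to 2200815 in GHMT, 5120230 to 15952646 in CM and 15971154 to 33552138 in E, of which mitochondrially encoded genes took 36.6 to 42.7%, 27.8 to 72.2%, 40.0 to 59.9% and 3.65 to 7.36%. Levels are given in CPM, which are counts brought to a common library size by edgeR's TMM scaling. A gene with 3 reads stood at 0.164 to 0.231 CPM in the AGHMT-labelled libraries, 1.56 to 3.93 CPM in GHMT, 0.223 to 0.515 CPM in CM and 0.0502 to 0.101 CPM in E. A transcript too rare to be seen in GHMT could thus be measured in the other groups. These floors cover counting error only. Akt1 did not separate the AGHMT-labelled group from GHMT, with a log2 fold change of 0.34 (edgeR adjusted p = 0.786) and overlapping libraries. It averaged 13.0 ± 6.22 CPM in the AGHMT-labelled group, 9.53 ± 7.12 in GHMT, 48.7 ± 48.2 in CM and 62.9 ± 41.3 in E (SD, n = 3 each). Whether transcripts of the supplied Akt are counted as Akt1 was not tested. Of the other supplied factors, Tbx5, Mef2c and Gata4 were above every E library in each AGHMT-labelled and GHMT library. Gata4 averaged 9.70 ± 1.95 CPM in the AGHMT-labelled group, 7.92 ± 6.83 in GHMT and 0.174 ± 0.152 in E (edgeR adjusted p = 1.85e-04 and 2.43e-04 against E). Hand2 did not pass against E in either group (edgeR adjusted p = 0.115 in the AGHMT-labelled group and 0.166 in GHMT). It averaged 6.04 ± 0.35 CPM in the AGHMT-labelled group, 5.17 ± 4.05 in GHMT and 2.27 ± 1.52 in E, where GHMT and E overlapped. The summed level of 7 cardiomyocyte markers was 4636 to 5161 CPM in the AGHMT-labelled libraries, 828 to 1318 in GHMT, 22694 to 39251 in CM and 10.5 to 16.9 in E. The library GHMT 1 stood apart in its mitochondrial share (72.2%), and CM 3 and E 1 in the GC content of the genes that stood high in them, for which values are given with the results they touch.

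Of the 8 genes, 7 had their highest mean in CM, and Kcnj5 had its highest in the AGHMT-labelled group. The GIRK genes Kcnj3 and Kcnj5 were nearly absent from E. Kcnj3 overlapped CM in both factor-treated groups, and Kcnj5 overlapped CM in GHMT and was above every CM library in the AGHMT-labelled group; none of these differences from CM passed the test. Kcnj2 and Abcc9 were intermediate, above E in both factor-treated groups and below CM in GHMT. Kcnj8 was several fold below CM in the AGHMT-labelled and GHMT groups, and Kcnj12, Kcnj11 and Abcc8 had few or no reads outside CM. In bulk samples, fewer cells of a type and less RNA per cell cannot be told apart.

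**Figure D1:**
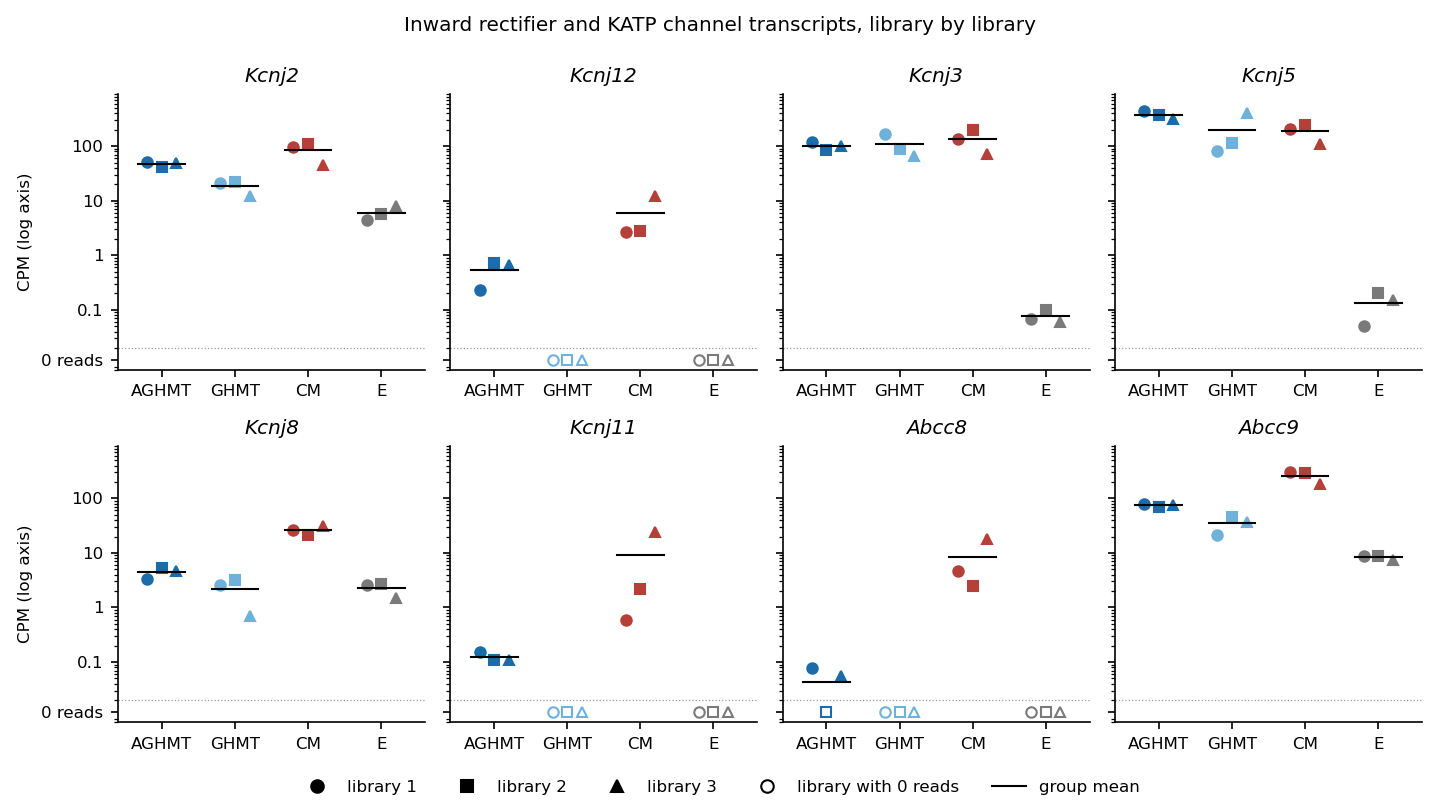
Level of each gene in every library, in CPM on a log axis, with the groups AGHMT (as labelled), GHMT, CM and E from left to right; open symbols below the dotted line mark libraries with 0 reads and bars mark group means. Kcnj3 and Kcnj5 stand between 67.4 and 436 CPM in every library of the first 3 groups and at or below 0.203 CPM in E, and the CM libraries are spread most widely for Kcnj12, Kcnj11 and Abcc8, where CM 3 is highest.

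Enough reads for a test were found for 7 of the 8 genes, and Kcnj11 did not pass the filter on low counts. Differences were tested by the quasi-likelihood method of edgeR over 15059 genes, with p-values adjusted after Benjamini and Hochberg and a threshold of 0.05. In AGHMT-labelled against GHMT libraries, 2 of the 7 (Kcnj2 and Abcc9) were higher, where 13.2% of all genes tested were higher and 4.58% lower (17.8% in either direction). In GHMT against E, 4 of the 7 (Kcnj2, Kcnj3, Kcnj5 and Abcc9) were higher, where 19.8% of all genes were higher and 32.9% lower (52.6% in either direction). In the AGHMT-labelled group against E, these 4 and Kcnj12 were higher, where 21.9% of all genes were higher and 24.6% lower (46.5% in either direction). In GHMT against CM, 5 of the 7 (Kcnj2, Kcnj12, Kcnj8, Abcc8 and Abcc9) were lower, where 34.7% of all genes were lower and 23.8% higher (58.6% in either direction). In the AGHMT-labelled group against CM, 4 of the 7 (Kcnj12, Kcnj8, Abcc8 and Abcc9) were lower, where 24.4% of all genes were lower and 23.7% higher (48.1% in either direction). In CM against E all 7 were higher, where 19.5% of all genes were higher and 22.5% lower (42% in either direction). Kcnj12 and Abcc8, with 0 reads in GHMT and E, passed the filter only through their CM libraries. Their place in the counts against CM, here and below, follows from that and is not read as a result about the members.

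The groups were also compared by whether their libraries overlapped. In AGHMT-labelled against GHMT libraries 4 of the 7 did not overlap, where 45.9% of all genes did not. In GHMT against E it was 4 of 7 beside 59.5%, and in AGHMT-labelled against E 6 of 7 beside 71.6%. In GHMT against CM it was 5 of 7 beside 58.6%, in AGHMT-labelled against CM 5 of 7 beside 70.5%, and in CM against E all 7 beside 57.2%. The 6 comparisons share libraries, so their counts are not independent of each other. Kcnj12 is among the 4 in AGHMT-labelled against GHMT libraries. Its level there lay under the 0.725 CPM that 3 reads pooled over GHMT would give, so no difference is read from it. Without GHMT 1, CM 3 and E 1, an alternative chosen after the data were seen, the calls numbered 2, 4, 5, 6, 6 and 7 of 7 in the same order of comparisons and in the same directions.

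The median log2 fold change of the tested members was set beside that of all tested genes, which was not at 0. A gene at 0 reads in 1 group entered at its bound, and a gene without a measurable fold was left out. In AGHMT-labelled over GHMT libraries it was 1.05 (5 genes) beside 0.63 for all genes. In GHMT over E it was 2.09 (5 genes) beside -1.06, and in AGHMT-labelled over E 3.15 (7 genes) beside -0.16. In GHMT over CM it was -2.87 (7 genes) beside -0.89, and in AGHMT-labelled over CM -1.80 (7 genes) beside -0.05. In CM over E it was 7.91 (7 genes) beside -0.26. That 7.91 is itself the bound of Kcnj12, 240-fold, which fell to 112-fold without CM 3. Kcnj12 and Abcc8 entered there at their bounds and passed the filter only through CM, so this median is not read as a result about the members. Other scalings moved the median of all genes. With total counts it was 1.17, -2.38, -0.99, -1.28, 0.13 and -1.25 in the same order, and with an offset for GC content 0.04, -0.23, -0.07, -0.27, -0.20 and 0.00. With DESeq2 size factors it was 0.52, -1.27, -0.50, -1.53, -0.78 and 0.14. The member medians above hold for TMM scaling only and are not to be set beside these. With the GC offset the 5 members in AGHMT-labelled over GHMT libraries moved as well. They stood at 1.41 (Kcnj2), 0.56 (Abcc9), 0.06 (Kcnj5), -0.10 (Kcnj8) and -0.52 (Kcnj3), beside 0.04 for all genes.

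**Figure D2:**
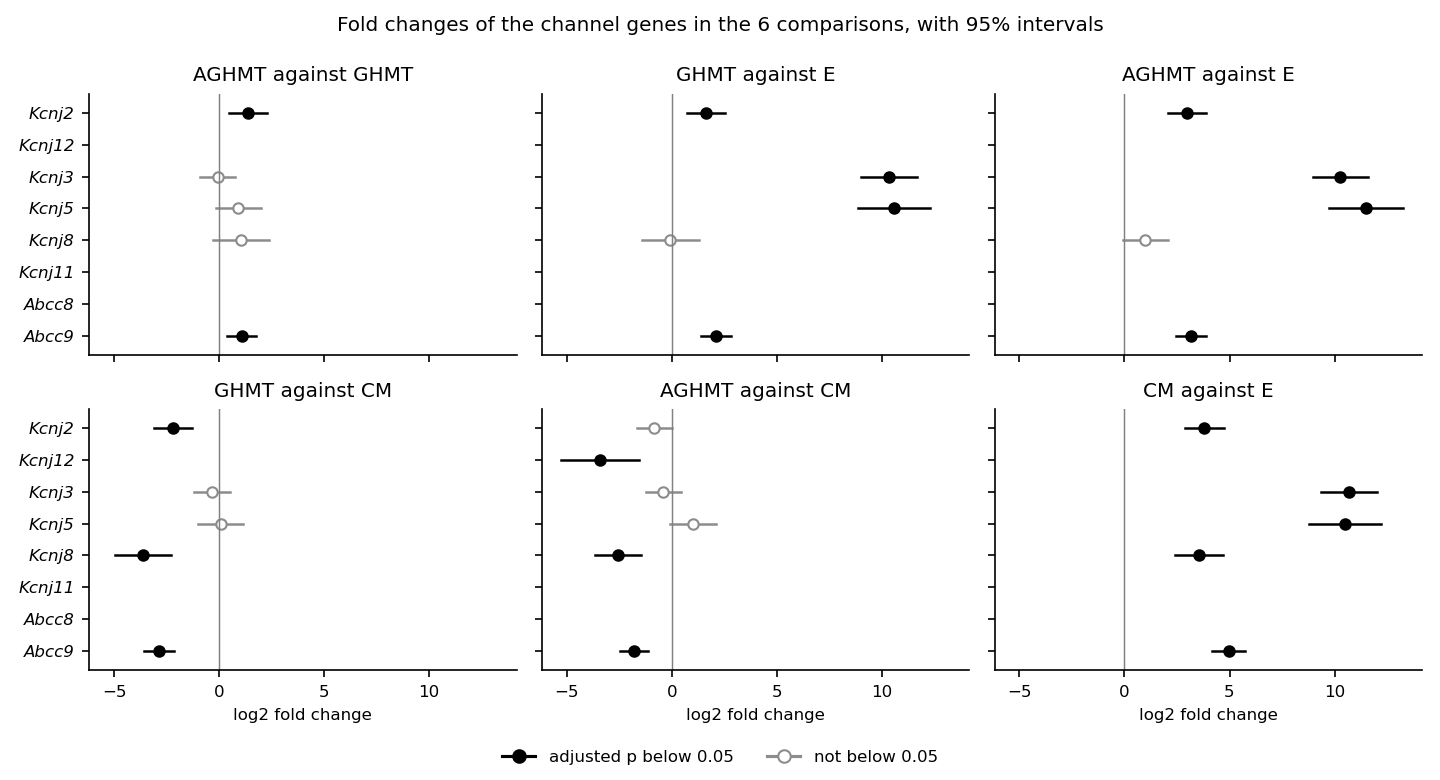
Log2 fold change of each tested gene in the 6 comparisons, first-named group over the second, with its 95% interval; filled points passed the test at an adjusted p below 0.05. Genes with at most 3 reads in a group have no point, among them Kcnj11 throughout. Kcnj3 and Kcnj5 lie beyond 10 against E in all 3 groups and near 0 in GHMT against CM.

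Kcnj2, the main Kir2 subunit of the ventricle, stood at 52.2, 41.1 and 49.6 CPM in AGHMT-labelled libraries, 21.0, 22.4 and 12.4 CPM in GHMT, 96.4, 112 and 45.5 CPM in CM and 4.40, 5.71 and 8.01 CPM in E. Every AGHMT-labelled library was above every GHMT library and every GHMT library above every E library, while CM 3 fell among the AGHMT-labelled libraries. The group means were 47.6 ± 5.79, 18.6 ± 5.43, 84.6 ± 34.7 and 6.04 ± 1.83 CPM (SD, n = 3 each), so the AGHMT-labelled mean was 56.3% and the GHMT mean 22.0% of the CM mean. Kcnj2 rose in GHMT against E by a log2 fold change of 1.62 (SE 0.43, edgeR adjusted p = 0.00609) and in the AGHMT-labelled group against E by 2.98 (SE 0.42, adjusted p = 9.14e-05). It was higher in AGHMT-labelled than in GHMT libraries by 1.36 (SE 0.42, edgeR adjusted p = 0.0383). This call was kept in 14 of 25 alternatives, among them the fit without GHMT 1, CM 3 and E 1 (1.44, adjusted p = 0.0163). The difference was 1.99 without AGHMT 3 and also without E 1, and it did not pass without AGHMT 1, AGHMT 2, CM 1, E 2 or any single GHMT library (edgeR adjusted p = 0.0502 to 0.107). Against CM it was lower in GHMT, at -2.19 (SE 0.43, edgeR adjusted p = 6.74e-04), and in the AGHMT-labelled group the difference of -0.83 did not pass (95% interval -1.67 to 0.01, edgeR adjusted p = 0.0935). With an offset for GC content the AGHMT-labelled difference from CM was -2.11 and passed (edgeR adjusted p = 6.28e-05), and that of GHMT from E was 0.69 and did not (adjusted p = 0.0696). The GHMT difference from E did not pass with total counts either (0.20, edgeR adjusted p = 0.725), nor without E 1 (0.80, adjusted p = 0.17), without AGHMT 3 (1.03, adjusted p = 0.0839) or with only these 2 groups in the fit (1.56, adjusted p = 0.106). Kcnj2 has the lowest GC content of the 8 genes, 41.2% in its longest transcript. Without GHMT 1, CM 3 and E 1 the AGHMT-labelled difference from CM was -1.14 and passed as well (edgeR adjusted p = 0.00854), as it did without CM 3 alone (-1.13, adjusted p = 0.0308). It also passed with DESeq2 (-1.51, DESeq2 adjusted p = 3.21e-06) and with DESeq2 size factors in edgeR (-1.51, edgeR adjusted p = 0.00309). With limma on the deposited normalized values it was -1.47 and passed (limma adjusted p = 0.00717), and it passed in 7 of 25 alternatives in all.

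Kcnj12, whose Kir2 subunit can assemble with that of Kcnj2, was measured in CM and, at a low level, in AGHMT-labelled libraries. It had 3, 13 and 12 reads (0.231, 0.716 and 0.654 CPM) in AGHMT-labelled libraries, 0 reads in each GHMT library, 36, 28 and 71 reads (2.68, 2.82 and 12.2 CPM) in CM and 0 reads in each E library. The AGHMT-labelled level lay under the 0.725 CPM that 3 reads pooled over the GHMT libraries would give, so a difference between these 2 groups was not detectable at the depth of GHMT. Against E the level was at least 21.7-fold higher in the AGHMT-labelled group (edgeR adjusted p = 0.00197) and at least 240-fold higher in CM (edgeR adjusted p = 8.18e-05). The bound takes 3 reads in the 3 E libraries together as the floor. Against CM it was lower by a log2 fold change of -3.41 (SE 0.84, edgeR adjusted p = 0.00725) in the AGHMT-labelled group and at least 8.13-fold lower in GHMT (edgeR adjusted p = 0.00454). Without CM 3, which was left out after the data were seen, the CM bounds were at least 112-fold over E and 3.79-fold over GHMT, and the AGHMT-labelled log2 fold change against CM was -2.33 (edgeR adjusted p = 0.0189). Kcnj12 passed the filter only through its CM libraries, so the p-values of its comparisons with CM are not read as support for a difference. Per kb of exon, the CM mean of Kcnj12 was 2.14 CPM per kb and that of Kcnj2 15.5 CPM per kb.

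Kcnj3, the GIRK subunit that needs a partner to reach the membrane, stood at 121, 83.9 and 101 CPM in AGHMT-labelled libraries, 169, 87.0 and 67.4 CPM in GHMT, 136, 195 and 72.5 CPM in CM and 0.067, 0.101 and 0.061 CPM in E (4, 3 and 2 reads). The first 3 groups overlapped one another and none overlapped E. In GHMT the log2 fold change over E was 10.35 (SE 0.62, edgeR adjusted p = 2.56e-08), in the AGHMT-labelled group 10.28 (SE 0.62, adjusted p = 2.44e-08) and in CM 10.68 (SE 0.63, adjusted p = 9.14e-09). As ratios of the reads pooled over each group's libraries to their pooled library size, with exact intervals for counting error only, these are 1292-fold (674 to 2846) in GHMT, 1355-fold (713 to 2965) in the AGHMT-labelled group and 1945-fold (1024 to 4258) in CM. The difference between AGHMT-labelled and GHMT libraries was -0.07 (95% interval -0.91 to 0.78, edgeR adjusted p = 0.917). That of GHMT from CM was -0.33 (95% interval -1.18 to 0.51, edgeR adjusted p = 0.481) and that of the AGHMT-labelled group from CM -0.40 (-1.23 to 0.43, adjusted p = 0.409). Without GHMT 1, CM 3 and E 1 both passed, at -1.11 in GHMT (edgeR adjusted p = 0.0102) and -0.71 in the AGHMT-labelled group (adjusted p = 0.0445), with the GC offset the AGHMT-labelled difference was -1.29 (adjusted p = 0.0171), and with total counts the GHMT difference was -0.84 (adjusted p = 0.0487). The AGHMT-labelled difference from CM was -1.08 with DESeq2 and also with DESeq2 size factors in edgeR, and passed in both (DESeq2 adjusted p = 0.0252, edgeR adjusted p = 0.0294). Without E 1 the GHMT difference from E was 9.55. Kcnj3 shares 1621 exon bases with the antisense RNA Gm26794, which stood at 0.165 to 0.382 CPM in AGHMT-labelled libraries, 0 to 7.29 CPM in GHMT, 0.604 to 1.03 CPM in CM and 0 in E. Whether strand was used in counting is not given in the sources used here, so in the shared bases the reads of these genes cannot be told apart.

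Kcnj5, the partner subunit of Kcnj3, had the highest mean level of the 8 genes in the AGHMT-labelled group, with 436, 371 and 321 CPM in AGHMT-labelled libraries, 80.0, 114 and 400.0 CPM in GHMT, 208, 246 and 109 CPM in CM and 0.050, 0.203 and 0.153 CPM in E (3, 6 and 5 reads). The GHMT libraries overlapped both the AGHMT-labelled and the CM libraries, with GHMT 3 far above GHMT 1 and GHMT 2. The log2 fold change over E was 10.58 (SE 0.80, edgeR adjusted p = 2.58e-07) in GHMT, 11.50 (SE 0.82, adjusted p = 1.26e-07) in the AGHMT-labelled group and 10.50 (SE 0.79, adjusted p = 1.20e-07) in CM. Every AGHMT-labelled library was above every CM library, with a mean of 200.2% of the CM mean, but the log2 fold change of 1.0 (95% interval -0.08 to 2.08, edgeR adjusted p = 0.115) did not pass; with the GC offset it was 1.18 and passed (edgeR adjusted p = 0.0408), and without GHMT 3 it was 1.0 and passed (adjusted p = 0.0332). The AGHMT-labelled difference from CM passed in 4 of 25 alternatives. With DESeq2 size factors it was 0.31 (edgeR adjusted p = 0.589), and with libraries thinned to 1 depth 0.55 (adjusted p = 0.68). Without GHMT 3 the GHMT difference from E was 9.54, and without E 1 it was 9.47. Against GHMT the AGHMT-labelled difference was 0.92 (95% interval -0.17 to 2.01, edgeR adjusted p = 0.217). Without GHMT 3 it was 1.98 and passed (edgeR adjusted p = 0.00813), as it did without E 1 (1.53, adjusted p = 0.0414). In GHMT the difference from CM was 0.08 (95% interval -1.0 to 1.16, edgeR adjusted p = 0.905). With the GC offset the GHMT difference from CM was 1.12 and passed (edgeR adjusted p = 0.0478). With the GC offset the group means were 330.1 ± 74.1 CPM in AGHMT-labelled libraries, 314 ± 194 in GHMT, 146 ± 54.8 in CM and 0.093 ± 0.057 in E. Against E, 7 of 12 atrial and nodal markers rose and 2 fell in GHMT, 8 rose and 1 fell in AGHMT-labelled libraries, and 7 rose and 3 fell in CM. Of all genes tested, 19.8% rose and 32.9% fell in GHMT, 21.9% and 24.6% in AGHMT-labelled libraries, and 19.5% and 22.5% in CM. The summed level of the 12 markers was 750 to 1067 CPM in AGHMT-labelled libraries, 1764 to 3419 CPM in GHMT, 219 to 521 CPM in CM and 128 to 186 CPM in E. Hcn4, a pacemaker channel gene, made up the largest part of the GHMT sum, with a mean of 439 CPM in AGHMT-labelled libraries, 2239 CPM in GHMT, 8.78 CPM in CM and 0.154 CPM in E. The part of these markers' cells in the levels of Kcnj3 and Kcnj5 was not tested.

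Kcnj8, the KATP pore subunit of the vascular channel, had reads in all 12 libraries and did not pass against E in GHMT or in AGHMT-labelled libraries. It stood at 3.38, 5.29 and 4.64 CPM in AGHMT-labelled libraries, 2.62, 3.13 and 0.687 CPM in GHMT (2, 6 and 1 reads), 25.8, 21.1 and 31.6 CPM in CM and 2.54, 2.67 and 1.5 CPM in E. The CM libraries were above all others, every AGHMT-labelled library was above every GHMT and E library, and GHMT and E overlapped. Against CM it was lower by a log2 fold change of -3.61 (SE 0.63, edgeR adjusted p = 2.58e-04) in GHMT and -2.56 (SE 0.52, adjusted p = 0.00143) in the AGHMT-labelled group, and in CM it was 3.54 (SE 0.54, adjusted p = 9.42e-05) above E. With the GC offset the differences from CM were -1.68 in GHMT (edgeR adjusted p = 0.0231) and -1.79 in the AGHMT-labelled group (adjusted p = 0.00354). The AGHMT-labelled difference was 0.99 from E (95% interval -0.08 to 2.06, edgeR adjusted p = 0.118; 0.0438 without GHMT 3) and 1.05 from GHMT (-0.28 to 2.38, adjusted p = 0.251). In GHMT the difference from E was -0.06 (95% interval -1.41 to 1.28, edgeR adjusted p = 0.944) on 9 reads; with the GC offset it turned to 2.07 and passed (edgeR adjusted p = 0.0151), as did that of the AGHMT-labelled group (1.97, adjusted p = 0.00202).

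Endothelial markers were highest in CM, as Kcnj8 was, while the highest sum of mural markers was that of an E library. The summed level of 7 endothelial markers was 62.3 to 72.7 CPM in AGHMT-labelled libraries, 2.62 to 11.5 CPM in GHMT, 483 to 703 CPM in CM and 10.2 to 17.2 CPM in E. All 7 were lower in AGHMT-labelled and in GHMT libraries than in CM, and all 7 were higher in CM than in E. In AGHMT-labelled libraries 5 were higher than in GHMT, and against E 6 were higher and 1 (Eng) lower. In GHMT against E 1 (Tie1) was higher and 2 (Emcn and Eng) were lower, and Kcnj8 passed in none of these last 3 comparisons. The summed level of 10 mural markers, which mark pericytes and smooth muscle, was 657 to 856 CPM in AGHMT-labelled libraries, 312 to 533 CPM in GHMT, 914 to 1338 CPM in CM and 1149 to 5761 CPM in E. Of the 10, 6 were lower and 3 higher in AGHMT-labelled libraries than in CM, 6 lower and 2 higher in GHMT than in CM, and in CM, set against E, 4 were higher and 4 lower. Beside the counts of both marker lists, the share of all genes that passed in either direction was 17.8% in AGHMT-labelled against GHMT libraries. It was 52.6% in GHMT against E, 46.5% in AGHMT-labelled against E and 42% in CM against E. Against CM it was 58.6% in GHMT and 48.1% in the AGHMT-labelled group. Among the mural markers Rgs5, a regulator of G protein signalling abundant in pericytes, had a mean of 279 CPM in AGHMT-labelled libraries, 17.0 CPM in GHMT, 884 CPM in CM and 7.22 CPM in E. The pericyte markers Higd1b and Vtn were at 0 reads in GHMT and in E, as was Notch3 in GHMT. Rgs5, Higd1b, Vtn and Notch3 are the 4 mural markers that were higher in CM than in E, and the 4 lower ones were Acta2, Cnn1, Pdgfrb and Tagln. Pdgfrb had a mean of 5.35 CPM in AGHMT-labelled libraries, 2.66 CPM in GHMT, 32.8 CPM in CM and 118 CPM in E. The part of such cells in the level of Kcnj8 and of its neighbour Abcc9 in CM was not tested.

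Kcnj11, the KATP pore subunit best known from ventricular muscle and islets, had 2, 2 and 2 reads in AGHMT-labelled libraries (0.109 to 0.154 CPM), 0 reads in each GHMT library, 8, 22 and 141 reads in CM (0.595, 2.21 and 24.2 CPM) and 0 reads in each E library. The CM libraries were above all others but spanned a wider ratio from lowest to highest than for any other member. Against E the CM level was at least 367-fold higher and the AGHMT-labelled level at least 5.06-fold higher, and against CM the level was at least 12.4-fold lower in GHMT. The ratio of AGHMT-labelled to CM reads, each pooled over the libraries and taken per pooled library size, was 0.0207 (exact interval 0.00749 to 0.046, counting error only). These values rest largely on CM 3. Without it the CM mean was 1.40 CPM, at least 57.1-fold above E and at least 1.94-fold above GHMT, and the ratio of AGHMT-labelled to CM reads was 0.0945 (0.0322 to 0.231). CM 1 alone lay under the 0.725 CPM that 3 reads pooled over the GHMT libraries would give. Without the filter on low counts, edgeR's adjusted p was 5.68e-16 for CM against E, 0.00414 for AGHMT-labelled against E, 6.77e-09 for AGHMT-labelled against CM and 1.28e-05 for GHMT against CM. In that fit the spread was taken from many genes together rather than from Kcnj11 itself. These p-values therefore do not measure the spread between its CM libraries and cannot be set beside those of the main fit.

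Abcc9, the sulfonylurea receptor of cardiac and smooth muscle, had the highest CPM of the 8 genes in CM. It stood at 79.5, 68.5 and 74.1 CPM in AGHMT-labelled libraries, 21.0, 45.9 and 37.1 CPM in GHMT, 305, 288 and 182 CPM in CM and 8.76, 8.82 and 7.34 CPM in E. The 4 groups did not overlap, and the means were ordered CM, AGHMT-labelled, GHMT and E, with 28.7%, 13.4% and 3.22% of the CM mean in the AGHMT-labelled group, GHMT and E. Abcc9 rose against E by a log2 fold change of 2.09 (SE 0.33, edgeR adjusted p = 1.96e-04) in GHMT, 3.15 (SE 0.34, adjusted p = 6.47e-06) in the AGHMT-labelled group and 4.96 (SE 0.37, adjusted p = 7.80e-08) in CM. Against CM it was lower, at -2.87 (SE 0.34, edgeR adjusted p = 8.91e-06) in GHMT and -1.80 (SE 0.32, adjusted p = 5.13e-04) in the AGHMT-labelled group. With total counts the GHMT difference from E was 0.79 and did not pass (edgeR adjusted p = 0.155). Abcc9 was higher in AGHMT-labelled than in GHMT libraries by 1.07 (SE 0.33, edgeR adjusted p = 0.0359), kept in 14 of 25 alternatives. Without GHMT 1, CM 3 and E 1 the difference was 0.83 (edgeR adjusted p = 0.0361), and with the GC offset it was 0.56 and did not pass (adjusted p = 0.0803). It was 1.70 without AGHMT 3 and 1.67 without E 1, and did not pass without AGHMT 1, AGHMT 2, CM 1, E 2 or GHMT 1 (edgeR adjusted p = 0.0579 to 0.103). Abcc9 shares 158 exon bases with the antisense RNA 5330439B14Rik, which did not exceed 0.403 CPM in any library.

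Abcc8, the sulfonylurea receptor of islets and atrium, had 1, 0 and 1 reads in AGHMT-labelled libraries, 0 reads in each GHMT library, 62, 25 and 104 reads in CM (4.61, 2.52 and 17.9 CPM) and 0 reads in each E library. CM was at least 339-fold above E (edgeR adjusted p = 1.02e-04), and GHMT at least 11.5-fold below CM (edgeR adjusted p = 0.00402). The ratio of AGHMT-labelled to CM reads, pooled as for Kcnj11, was 0.00618 (exact interval 7.43e-04 to 0.0226, counting error only; edgeR adjusted p = 6.75e-04). Abcc8 passed the filter only through its CM libraries, so the p-values of its comparisons with CM are not read as support for a difference. Without CM 3 the CM mean was 3.56 CPM, at least 145-fold above E and at least 4.91-fold above GHMT, and the ratio of AGHMT-labelled to CM reads was 0.0109 (0.00129 to 0.0404). Per kb of exon the CM means were 30.9 CPM per kb for Abcc9 and 1.03 CPM per kb for Abcc8.

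Between genes, levels were compared per kb of exon, with SD and n = 3 in each group, and neighbours in the order were read as apart where their means differed by more than the sum of both SDs. In the AGHMT-labelled group the order was Kcnj5 (80.2 ± 12.3 CPM per kb), Kcnj3 (19.5 ± 3.6), Abcc9 (8.84 ± 0.66), Kcnj2 (8.75 ± 1.06) and Kcnj8 (1.74 ± 0.38). Kcnj12 (0.194 ± 0.096), Kcnj11 (0.034 ± 0.007) and Abcc8 (0.0054 ± 0.0049) followed. Among neighbours down to Kcnj11, only Abcc9 and Kcnj2 were not apart. Kcnj11 and Abcc8 had 6 and 2 reads in the group, too few to be read as apart. In GHMT the order was Kcnj5 (42.2 ± 37.5 CPM per kb), Kcnj3 (20.7 ± 10.3), Abcc9 (4.14 ± 1.51), Kcnj2 (3.41 ± 1.0) and Kcnj8 (0.842 ± 0.505). There neither Kcnj5 and Kcnj3 nor Abcc9 and Kcnj2 were apart. In CM it was Kcnj5 (40.1 ± 15.0 CPM per kb), Abcc9 (30.9 ± 7.98), Kcnj3 (25.8 ± 11.7), Kcnj2 (15.5 ± 6.37) and Kcnj8 (10.3 ± 2.06). Kcnj11 (2.45 ± 3.59), Kcnj12 (2.14 ± 1.98) and Abcc8 (1.03 ± 1.03) followed, and the only neighbours apart were Kcnj8 and Kcnj11. In E, Kcnj2 (1.11 ± 0.34 CPM per kb), Abcc9 (0.992 ± 0.1) and Kcnj8 (0.878 ± 0.252) were not apart and stood above Kcnj5 (0.029 ± 0.017) and Kcnj3 (0.015 ± 0.004).

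Ratios of alternative subunits, taken within a library per kb of exon with 0.5 reads added, do not depend on how libraries were scaled. Kcnj11 stood below Kcnj8 in every CM library, by log2 ratios of -5.88, -3.75 and -0.91, and Kcnj11 supplied 2.25% (Wilson 95% interval 1.15 to 4.38%), 9.48% (6.35 to 13.9%) and 43.4% (38.1 to 48.8%) of the reads of the pair. Abcc9 stood above Abcc8 in CM by 5.99, 6.76 and 3.29, and supplied 98.5% (98.1 to 98.8%), 99.1% (98.7 to 99.4%) and 91.1% (89.3 to 92.6%) of their reads. Kcnj2 stood above Kcnj12 in CM by 4.17, 4.30 and 0.91. In all 3 pairs CM 3 held the most extreme of the CM values, on the side of the member with the higher GC content.

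The log2 ratio of Kcnj5 to Kcnj3 was 2.0, 2.30 and 1.83 in AGHMT-labelled libraries, -0.92, 0.54 and 2.72 in GHMT, 0.76, 0.49 and 0.75 in CM and -0.21, 1.05 and 1.29 in E, where it rests on 7 to 9 reads a library. The AGHMT-labelled libraries were all above the CM and E libraries, and the GHMT libraries spanned the range of all others. The AGHMT-labelled mean was 2.04 ± 0.24 and the CM mean 0.67 ± 0.15 (SD, n = 3 each), a difference of 1.37 with an exact two-sided permutation p of 0.1, the smallest that 3 against 3 libraries allow (0.171 adjusted over the 24 ratio comparisons, Benjamini-Hochberg). No ratio comparison could therefore pass, and 0.1 was reached wherever the groups did not overlap. A ratio with a gene at 0 reads, as in every GHMT and E library for the other 3 pairs, is set by the added 0.5 reads and by depth, and is not compared.

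**Figure D3:**
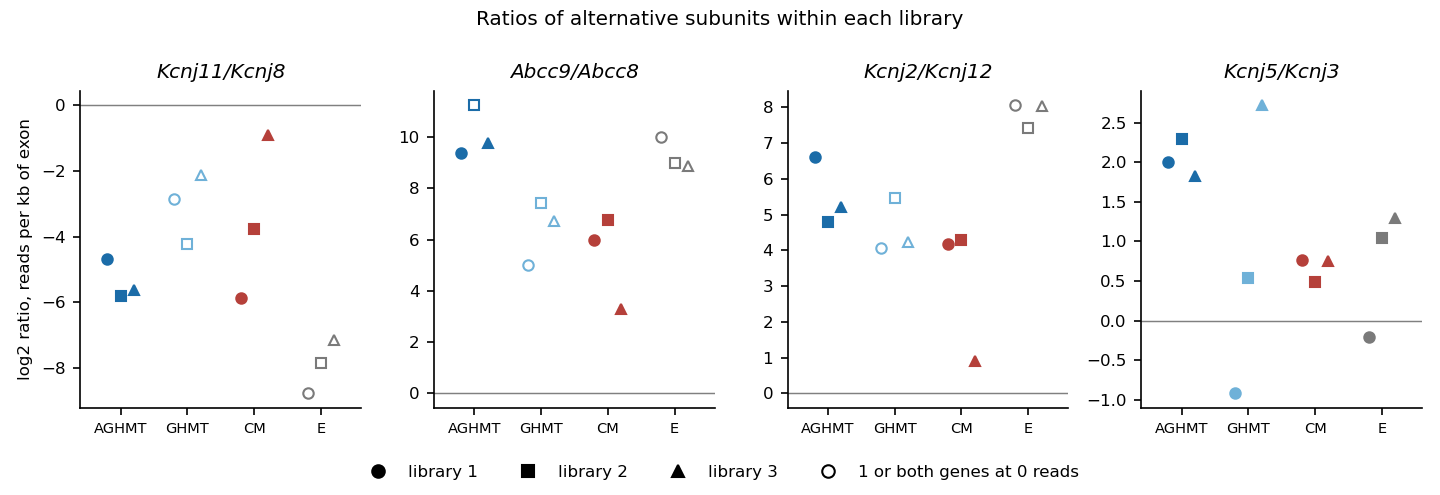
Log2 ratio of 2 alternative subunits per kb of exon in every library, with the groups AGHMT (as labelled), GHMT, CM and E from left to right and a scale of its own for each pair; open symbols mark libraries in which 1 or both genes had 0 reads. CM 3 holds the most extreme CM value in the first 3 pairs, at -0.91, 3.29 and 0.91, but not for Kcnj5 over Kcnj3, at 0.75.

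The differences among the CM libraries varied with the GC content of the genes. In CM 3 against the mean of CM 1 and CM 2, the median log2 ratio of all genes ran from -0.97 in the class from 35% GC (152 genes) to 1.46 in the class from 60% (38 genes). Of the channel genes, those with the lowest GC content were lower in CM 3, at -1.18 for Kcnj2 (41.2% GC), -1.19 for Kcnj3 (43.9%), -0.70 for Abcc9 (46.2%) and -1.05 for Kcnj5 (50.2%). Those with the highest were higher in CM 3, at 0.42 for Kcnj8 (53.3% GC), 1.97 for Kcnj12 (56.5%), 3.70 for Kcnj11 (57.1%) and 2.18 for Abcc8 (57.3%). Kcnj11 was 13.0-fold higher in CM 3, more than the median gene of its class (1.03 in the class from 55%). With the GC offset the CM means became 2.43 ± 0.92 CPM for Kcnj12, against 5.90 ± 5.46 without it, and 3.10 ± 1.24 CPM for Abcc8, against 8.33 ± 8.32 (SD, n = 3 each). The part of GC content in the differences between groups was not tested beyond the fit with the offset.

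**Figure D4:**
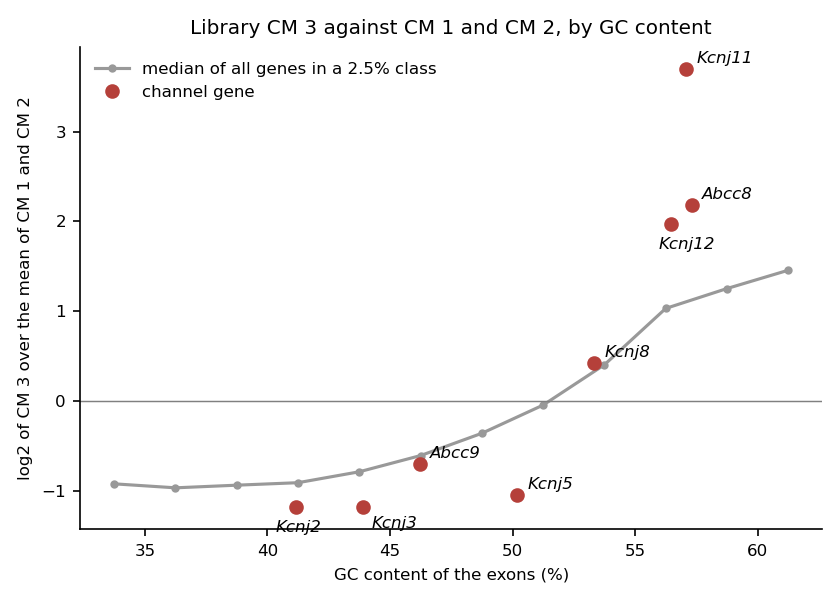
Log2 ratio of the level in CM 3 to the mean of CM 1 and CM 2 (vertical) against the GC content of each gene's longest transcript in percent (horizontal, where the axis reads exons), for the 8 channel genes (points) and as the median of all genes in classes of 2.5% GC (line, at least 20 genes each). Kcnj2, Kcnj3, Kcnj5 and Abcc9 lie below 0 and Kcnj8, Kcnj12, Kcnj11 and Abcc8 above it, and Kcnj5 lies at -1.05, where the median of its class is -0.05.

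Among 9 other inward rectifier genes, Kcnj15, known from kidney and secretory epithelia, was the only one tested. It stood at 21.1 ± 2.71 CPM in AGHMT-labelled libraries, 80.6 ± 56.7 in GHMT, 2.77 ± 0.61 in CM and 31.2 ± 6.25 in E (SD, n = 3 each). It was lower in AGHMT-labelled than in GHMT libraries, at -1.94 (edgeR adjusted p = 0.0113), higher in GHMT than in E, at 1.38 (adjusted p = 0.018), and lower in CM than in E, at -3.47 (adjusted p = 4.76e-05). None of the 8 channel genes had its lowest mean in CM. The other 8 were under 1 CPM on average in all 4 groups.

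Upstream of the GIRK channel, the 20 genes of receptors, G protein subunits and their regulators (RGS) were all tested. In AGHMT-labelled against GHMT libraries 3 were higher and 1 lower, in GHMT against E 7 and 5, in AGHMT-labelled against E 8 and 3, in GHMT against CM 6 and 9, in AGHMT-labelled against CM 5 and 4, and in CM against E 8 and 6. Of all genes, 17.8, 52.6, 46.5, 58.6, 48.1 and 42% passed in either direction in the same order. The median log2 fold change, with genes at 0 reads treated as above, was -0.14, 0.47, 0.26, -0.32, -0.82 and 0.83 in the same order. For all genes it was 0.63, -1.06, -0.16, -0.89, -0.05 and -0.26. Chrm2, the muscarinic receptor that opens the channel, was far lower in E than in the other groups, as Kcnj3 and Kcnj5 were. It stood at 117 ± 18.0 CPM in AGHMT-labelled libraries, 232 ± 48.6 in GHMT, 188 ± 80.9 in CM and 0.58 ± 0.17 in E (SD, n = 3 each). Unlike for Kcnj3 and Kcnj5, the AGHMT-labelled libraries (97.4 to 133 CPM) lay below every GHMT library (185 to 282 CPM). That difference of Chrm2 did not pass. Its log2 fold change over E was 8.63 in GHMT (edgeR adjusted p = 1.43e-08), 7.64 in the AGHMT-labelled group (adjusted p = 2.45e-08) and 8.33 in CM (adjusted p = 7.64e-09). Adora1, the adenosine receptor coupled to the same channel, stood at 25.8 ± 7.91 CPM in AGHMT-labelled libraries, 35.3 ± 18.4 in GHMT, 11.6 ± 3.58 in CM and 0.091 ± 0.080 in E. It rose over E by 8.39 in GHMT (edgeR adjusted p = 2.33e-06) and by 7.92 in the AGHMT-labelled group (adjusted p = 3.13e-06).

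The RGS proteins, which shorten G protein signals, held the genes of the list with the largest called differences between AGHMT-labelled and GHMT libraries. Rgs5 was higher in AGHMT-labelled than in GHMT libraries by 3.97 (edgeR adjusted p = 0.00281) and Rgs4 by 2.88 (adjusted p = 0.0298). Against CM, Rgs5 was lower in the AGHMT-labelled group, at -1.67 (edgeR adjusted p = 0.0351). Rgs3 had 13.9 ± 10.3 CPM in CM and was lower in GHMT, where it had 0 reads (edgeR adjusted p = 9.14e-04), and in the AGHMT-labelled group, at 0.819 ± 0.350 CPM (adjusted p = 0.00212). Gng12, a γ subunit with the highest mean of the list, stood at 419 ± 46.4 CPM in AGHMT-labelled libraries, 467 ± 117 in GHMT, 49.0 ± 16.5 in CM and 232 ± 34.0 in E. It was above CM by 3.25 in GHMT (edgeR adjusted p = 1.88e-06) and by 3.09 in the AGHMT-labelled group (adjusted p = 6.40e-06).

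All 13 membrane partners and scaffolds of Kir2 and KATP channels were tested. Of these, 1 was higher and 3 lower in AGHMT-labelled against GHMT libraries, 5 and 4 in GHMT against E, and 4 and 2 in AGHMT-labelled against E. In GHMT against CM it was 7 higher and 3 lower, in AGHMT-labelled against CM 6 and 3, and in CM against E 4 and 5, beside the same shares of all genes in either direction (17.8, 52.6, 46.5, 58.6, 48.1 and 42%). The median log2 fold change was 0.07, -0.36, 0.22, 1.08, 0.64 and -0.15 in this order. Cav1, a caveolin with the highest mean of the list over all libraries, passed in none of the 6 comparisons, and its mean was 326 to 406 CPM in every group. Ank2, the ankyrin that anchors channels and transporters in heart muscle, stood at 43.1 ± 2.47 CPM in AGHMT-labelled libraries, 5.30 ± 3.44 in GHMT, 151 ± 37.0 in CM and 37.1 ± 3.04 in E, and was higher in AGHMT-labelled than in GHMT libraries by 3.19 (edgeR adjusted p = 5.15e-04). Akap5, an anchor of protein kinase A, had 34.4 ± 3.51 CPM in AGHMT-labelled libraries, 148 ± 54.6 in GHMT, 17.0 ± 2.65 in CM and 3.17 ± 0.68 in E, and was lower in AGHMT-labelled than in GHMT libraries, at -2.10 (edgeR adjusted p = 0.00209). It was higher in GHMT than in E by 5.54 (edgeR adjusted p = 2.20e-07). Sntb2, a syntrophin, was lower in AGHMT-labelled than in GHMT libraries, at -2.21 (edgeR adjusted p = 0.00123). Flna, a filamin that binds Kir2 channels, was lower in the AGHMT-labelled group than in E, at -3.77 (edgeR adjusted p = 1.11e-04), and in CM, at -4.05 (adjusted p = 3.55e-05). Cav3, the muscle caveolin that binds Kir2 channels, was at 0.347 ± 0.065 CPM in AGHMT-labelled libraries, had 0 reads in GHMT, and averaged 23.3 ± 27.4 CPM in CM and 0.190 ± 0.272 CPM in E. It was lower than in CM in the AGHMT-labelled group, at -6.04 (edgeR adjusted p = 0.00199), and in GHMT (adjusted p = 0.00308).

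Of 6 two-pore background potassium channel genes, 4 were tested. Kcnk3, an acid-sensitive channel, had 9.86 ± 1.45 CPM in AGHMT-labelled libraries, 0.174 ± 0.301 in GHMT (1 read in all), 65.9 ± 47.6 in CM and 0.150 ± 0.128 in E. It was higher in AGHMT-labelled than in GHMT libraries (edgeR adjusted p = 0.00655), higher than in E by 5.87 (adjusted p = 3.12e-05) and lower than in CM, at -2.74 (adjusted p = 0.00245). Kcnk6 stood at 3.23 ± 0.35 CPM in AGHMT-labelled libraries, 0.174 ± 0.301 in GHMT (1 read in all), 11 ± 3.79 in CM and 4.96 ± 1.30 in E. Kcnk2 and Kcnk5 passed in none of the 6 comparisons.

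The genes whose values over the 12 libraries lay nearest to each member, by the root mean square of the difference between log2 CPM values centred on each gene's mean, were sought among 7395 genes, as a description without a test. Kcnj3 lay nearest to Dsg2 (0.38), a desmosome cadherin, Corin (0.44), the protease that cleaves atrial natriuretic peptide, and Clic5 (0.64), and Kcnj5 to Trdn (0.73), the triadin of the calcium release complex, Smpx (0.97), a small striated muscle protein, and Ppp1r14c (0.97). Kcnj2 lay nearest to Ppp2r3a (0.28), a regulatory phosphatase subunit, Uqcrb (0.37) and Dlat (0.38), and Abcc9 to Mpc2 (0.38), Aldh5a1 (0.48) and Ppp2r3a (0.49). Kcnj8 lay nearest to Nipsnap2 (0.39), Hk2 (0.43), a hexokinase, and Lmo7 (0.55), Kcnj12 to Slc4a3 (0.72), Acaa2 (0.75) and Pink1 (0.78), and Abcc8 to Ndufb8 (0.81), Des (0.86), the muscle desmin, and Nppb (0.87). Among the members themselves the closest pair was Kcnj2 and Abcc9 (0.62), followed by Kcnj3 and Kcnj5 (0.99) and Kcnj12 and Kcnj8 (1.0), while the neighbouring genes Kcnj8 and Abcc9 lay at 1.10. The 4 groups, depth and base composition are shared by all these values.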

How the data were processed

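Gene counts of 12 mouse RNA sequencing libraries were used as the authors deposited them; per the submitters' processing notes reads were mapped to mm10 with Bowtie2 2.0.6 and counted with HTSeq, while neither strand setting nor annotation is stated in the labels. A deposited table of signal (gene counts divided by size factors, for which the notes name DESeq) served an alternative only; all its values came out as whole reads (100% within 0.001). Rows that name no gene were left out.

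Counts were scaled by TMM and filtered with filterByExpr (minimum count 10, total 15), leaving 15059 genes, and tested with edgeR 4.0.16 (quasi-likelihood, all 12 libraries in 1 fit, Benjamini-Hochberg adjustment) in R 4.3.3. Log2 CPM values used a prior count of 2. Of 43629 identifiers, 42548 matched GENCODE M21, from which exon lengths and the GC content of each gene's longest transcript were taken. Bounds took 3 reads pooled over the libraries of a group as the floor. DESeq2 1.42.0 and limma 3.58.1 served alternatives; ratios used SciPy 1.17.1. The fits were tested on simulated data. Replicates of a group differed beyond sampling noise (chi-square per degree of freedom 13.4 to 272).

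The members and the gene and marker lists were chosen with earlier results of these data known. Named from each list were the gene with the highest mean log2 CPM and, per comparison, up to 2 passing genes with the largest change, and for each tested member the 3 nearest genes.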

Additional observations from a re-analysis of the deposited data

How the results depend on the processing

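The calls of Kcnj3 and Kcnj5 against E and of Abcc9 against CM were made in all 25 alternatives. In AGHMT-labelled against GHMT libraries the 2 calls of the main fit became 1 with the GC offset and 0 without the filter, with only the 2 groups compared, or with libraries thinned to 1 depth, and 0 to 3 when single libraries were left out. Called members numbered 2 in GHMT against E with thinning or total counts (3 to 4 leaving out libraries), 2 in AGHMT-labelled against E with thinning (5 to 6), 3 with only the 2 groups and 1 with thinning in GHMT against CM (5 to 6), 7 with the GC offset and 1 with thinning in AGHMT-labelled against CM (4 to 6), and 3 with thinning in CM against E (7 to 8). Thinning leaves each library at the depth of the shallowest, and the cause of the other changes was not tested.

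The results that turned direction had not passed their test. For Kcnj3 in AGHMT-labelled against GHMT libraries the log2 fold change was 0.27 with thinning, 0.68 with total counts, 0.40 without GHMT 1, CM 3 and E 1, 0.35 without mitochondrially encoded genes and -0.28 to 0.66 leaving out libraries. For Kcnj8 it was -0.10 with the GC offset and for Abcc8 -1.94 with DESeq2. For Kcnj8 in GHMT against E it was 2.07 with the GC offset, 0.20 with thinning and -0.65 to 0.37 leaving out libraries. For Kcnj5 in GHMT against CM it was -0.50 with DESeq2 and with its size factors, -0.80 with limma, -0.33 with only the 2 groups, -0.14 with thinning, -0.13 with total counts, -0.35 without mitochondrially encoded genes and -0.98 to 0.44 leaving out libraries, the lowest without GHMT 3. Leaving out libraries, the difference in log2 ratio of Kcnj11 to Kcnj8 was -0.73 to 1.75 in GHMT minus CM, where GHMT had 0 reads of Kcnj11 and no direction is read, and that of Kcnj5 to Kcnj3 -0.90 to 0.92 in GHMT minus E, -0.86 to 0.96 in GHMT minus CM and -0.50 to 0.25 in CM minus E, where 1 added read gave 0.018.

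Over all genes, calls in the order of comparisons used above numbered 2682, 7927, 6998, 8821, 7244 and 6319, and with thinning 55, 1146, 555, 1822, 726 and 1046. With limma they numbered 4445 in AGHMT-labelled against GHMT libraries and 4603 in AGHMT-labelled against E, and with only the 2 groups 1740 in the first and 4980 in GHMT against CM. Leaving out single libraries gave 1037 (without AGHMT 2) to 4073 (without E 1) in the first and 4238 (without AGHMT 3) to 8278 in AGHMT-labelled against E.

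The deviations of same-numbered libraries from their group means had correlations of -0.719 to 0.130. Single libraries also deviated with GC content, which enters these correlations, so they cannot tell whether the numbers pair the libraries. With the replicate block, 0 members were called in AGHMT-labelled against GHMT libraries (1355 genes in all), and 1 with the block and the GC offset together. With the block the log2 fold change of Kcnj3 there was 0.020 and that of Kcnj5 in GHMT against CM -0.10; with the block and GC offset that of Kcnj8 was -0.076 in AGHMT-labelled against GHMT libraries and 2.05 in GHMT against E. Depth limits GHMT most.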
